A study of Mus musculus with 24 samples.

Results

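The ventrobasal complex (VB), the somatosensory relay of the thalamus, was compared with the dorsal lateral geniculate nucleus (dLGN), the visual relay, in control mice on the day of birth (P0). The arrays were chosen by their titles as control, P0 and VB or dLGN, which gave 5 of the 24 arrays of the series: 3 VB arrays (labels 35_1, 35_2 and 39_5) and 2 dLGN arrays (labels 35_1 and 39_5). The pups were wild type on a C57BL/6 background and had not been enucleated. Each array held RNA from a nucleus microdissected from slices, amplified over repeated rounds and hybridised to an Affymetrix mouse expression array. A further pair of comparisons served as a repeat in other arrays: 3 VB and 3 dLGN arrays of non-enucleated mice at P4, and 3 VB and 4 dLGN arrays at P0 of embBE mice, whose eyes had been removed on both sides before birth. The labels do not say what the numbers in an array's label stand for, so the p-values measure the spread between these arrays. Array values below are log2 signals, and wherever they are listed the VB arrays come as 35_1, 35_2 and 39_5 and the dLGN arrays as 35_1 and 39_5.

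Both nuclei are made mainly of glutamatergic relay neurons that receive a sensory input and project to layer 4 of a primary cortical area. VB receives touch and whisker signals from the brainstem and sends its axons to the barrel field, whereas dLGN receives retinal axons and projects to the primary visual area. Relay neurons of both nuclei arise from the same thalamic progenitor domain and share factors such as Tcf7l2, Lef1, Gbx2 and Foxp2. Around birth thalamic axons branch in their cortical targets, and guidance receptors, adhesion proteins and trophic factors act on this process.

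Relay markers were high on all 5 arrays. Tcf7l2 read 12.80, 12.36 and 12.04 in VB, against 12.45 and 12.49 in dLGN, and Foxp2 read 12.82, 12.62 and 12.29 in VB, against 12.51 and 11.83 in dLGN. Slc17a6, the vesicular glutamate transporter of relay neurons, lay between 11.84 and 12.87 in VB and at 11.92 and 11.83 in dLGN. Gbx2 was uneven, with 7.48, 8.40 and 7.05 in VB and 8.45 and 5.18 in dLGN, so that the ranges overlapped (adjusted p = 0.897, limma). Cortical neuron markers were near the lowest signals on the arrays: Neurod6 did not exceed 2.67 in VB or 3.45 in dLGN, and Tbr1 did not exceed 2.82 in VB or 2.77 in dLGN.

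GABAergic markers of the surrounding nuclei were highest on the arrays labelled 39_5 of both nuclei. The summed linear signal of 24 such markers was 1560, 1320 and 3740 in VB and 1780 and 4610 in dLGN, so that both arrays labelled 39_5 were the highest of their nucleus. Gad1, the GABA-synthesising enzyme, read 4.79, 4.33 and 9.97 in VB and 7.29 and 9.51 in dLGN. The summed signal of habenula markers was 1210, 1620 and 1410 in VB, below the 1850 and 2510 of dLGN, and that of oligodendrocyte markers was 12000, 14900 and 13800 in VB, above the 11500 and 10900 of dLGN. The sum over 27 relay factors was 64000, 61000 and 50600 in VB, below the 70900 and 70400 of dLGN. All 11 microglial markers had differences above 0 and 24 of 31 cell cycle genes below 0, with no adjusted call in either list. The sums of the cortical, choroid plexus, astrocyte, microglia, vascular, red blood cell and cell cycle lists overlapped between the nuclei. The part of these markers in the differences below was not tested. In tissue of mixed cells, fewer cells of a type and less RNA per cell cannot be told apart.

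**Figure D1:**
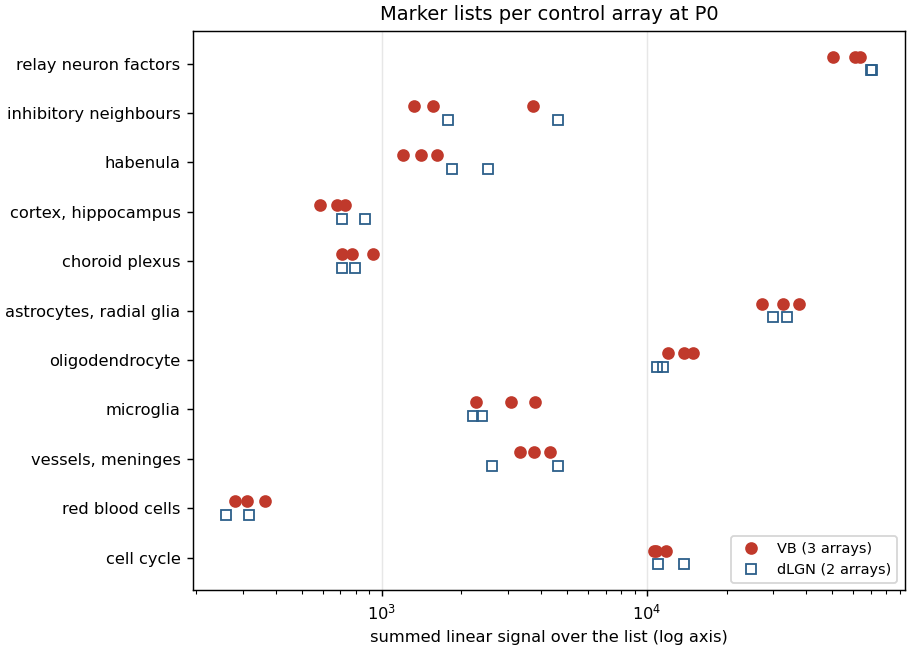
Summed linear signal (log axis) of relay factors, of markers of cell types that the dissected tissue could also hold and of cell cycle genes, 1 mark per control array at P0 (VB filled circles, dLGN open squares). The inhibitory marker sum reached 3740 in 1 VB array and 4610 in 1 dLGN array, both labelled 39_5, against 1320 to 1780 on the other arrays.

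One VB array stood apart. VB 35_1 had the narrowest spread of signals (SD 2.22 over all probe sets, against 2.32 to 2.38 on the other 4 arrays) and the largest gap between the 3′ and 5′ actin probe sets (4.29 log2 units, against 2.20 and 2.98 on the other VB arrays and 3.25 and 4.05 in dLGN). The gap between the 3′ and 5′ Gapdh probe sets was 4.84, 3.71 and 4.07 in VB and 4.62 and 4.88 in dLGN. A larger gap goes with shorter amplified RNA. Apart from VB 35_1, both gaps were larger in dLGN than in VB, so on those arrays this measure and the nucleus cannot be told apart. All 5 arrays had low Xist (6.93 to 7.31) and high Eif2s3y (8.24 to 9.02), so the sex markers did not separate the nuclei.

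The nuclei differed at 293 of 18194 genes at an adjusted p under 0.05 (limma over the 24 arrays, Benjamini-Hochberg), 1.61% of the genes tested. Of these, 106 (0.583%) were higher in VB and 187 (1.03%) were lower. Counts of adjusted calls in the gene lists below are to be read beside these shares. At least 2-fold differences numbered 57 among the higher genes and 89 among the lower ones, and at least 4-fold differences 11 and 13. The threshold of the study, a fold of at least 1.5 and an unadjusted p under 0.05, was passed by 650 genes (3.57%), 235 higher (1.29%) and 415 lower (2.28%) in VB. The VB and dLGN arrays did not overlap for any of the 293 genes, against 22.9% of all genes without overlap. With 3 arrays against 2, an exact two-sided permutation of the 5 arrays has 10 splits, and even Plxna2, the gene with the smallest adjusted p (1.81e-06), could not go below an exact p of 0.1. The calls therefore rest on a spread estimated over all 24 arrays, and the spread of the 5 arrays by themselves gave 79 calls. Without dLGN 39_5 the count was 84, all among the 293, without dLGN 35_1 it was 140, without VB 39_5 151, and without VB 35_1 305, of which 233 were shared.

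**Figure D2:**
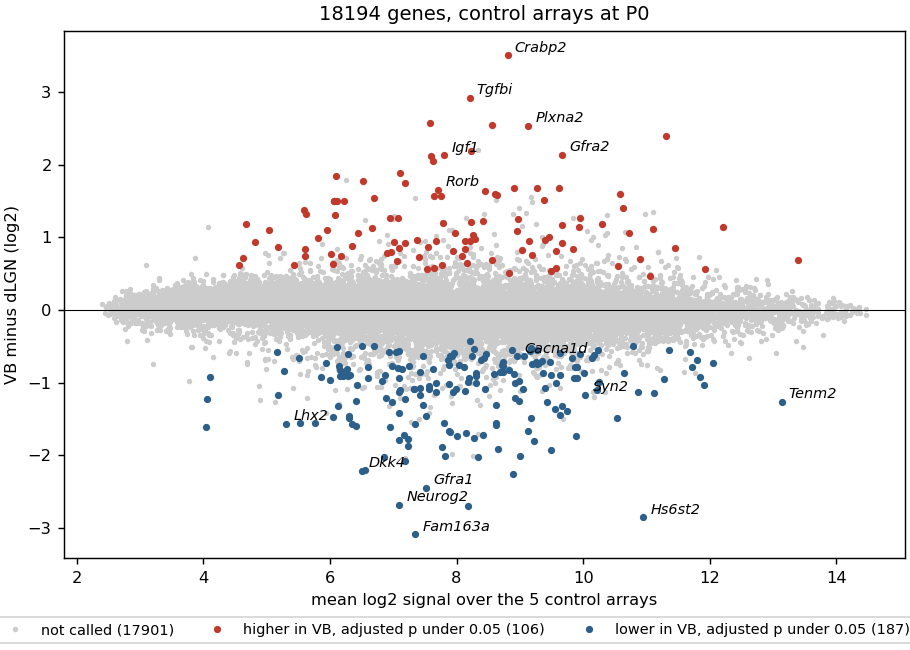
Difference between VB and dLGN (log2, vertical axis) against the mean log2 signal over the 5 control arrays at P0 (horizontal axis), 1 point per gene. The 106 genes called higher in VB and the 187 called lower are coloured, from Crabp2 at 3.51 to Fam163a at -3.09, and lie across the range of signals.

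The largest rise in VB was that of Crabp2, a cytoplasmic protein that carries retinoic acid to its nuclear receptors. Its signal was 9.94, 10.35 and 10.34 in VB, against 7.53 and 5.87 in dLGN, a log2 difference of 3.51 (SE 0.66, 11.4-fold, adjusted p = 0.00591). The VB arrays agreed closely and the dLGN arrays were more than a log2 unit apart from each other. Without dLGN 39_5 the difference was 2.68 and the adjusted p 0.252. Among 17 measured genes of retinoid binding, synthesis and breakdown Crabp2 was the one adjusted call, where 1.61% of all genes were called. Cyp26a1, which degrades retinoic acid, passed the threshold of the study at 0.74 (6.68, 6.55 and 7.16 in VB, against 5.90 and 6.21 in dLGN, adjusted p = 0.214).

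Tgfbi, a secreted matrix protein induced by TGF-beta, read 9.95, 9.18 and 8.99 in VB, against 6.82 and 6.08 in dLGN, a difference of 2.92 (SE 0.39, adjusted p = 0.000199). Ppm1j, a protein phosphatase, differed by 2.57 (8.07, 8.36 and 9.40 in VB, against 6.00 and 6.08 in dLGN). Pde1c, a phosphodiesterase switched on by calcium and calmodulin, read 9.25, 9.67 and 9.82 in VB and 7.68 and 6.40 in dLGN (difference 2.54, SE 0.51, adjusted p = 0.00954). Its 5 other probe sets had the same sign but smaller differences, of 0.21 to 0.81. Vsnl1, a neuronal calcium sensor, read 11.89, 12.44 and 12.48 in VB and 9.93 and 9.82 in dLGN (difference 2.39, adjusted p = 0.00776). Of 13 phosphodiesterase genes, grouped after their values were seen, Pde1c was called higher in VB and Pde4b lower (8.25, 8.47 and 8.56 in VB, 9.41 and 8.98 in dLGN, difference -0.77, adjusted p = 0.026), with a group median of 0.03. Ppp1r17, which is turned into a phosphatase inhibitor by cGMP-dependent kinase in cerebellar Purkinje cells, read 8.55, 8.16 and 8.64 in VB and 6.27 and 6.39 in dLGN (difference 2.12, adjusted p = 0.000702). Pde1c and Vsnl1 lost the call without dLGN 39_5 (adjusted p = 0.337 and 0.13), Pde1c also without VB 39_5 (0.0506) and Vsnl1 without dLGN 35_1 (0.0738), while Ppp1r17 and Tgfbi kept it without each of the 5 arrays in turn.

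**Figure D3:**
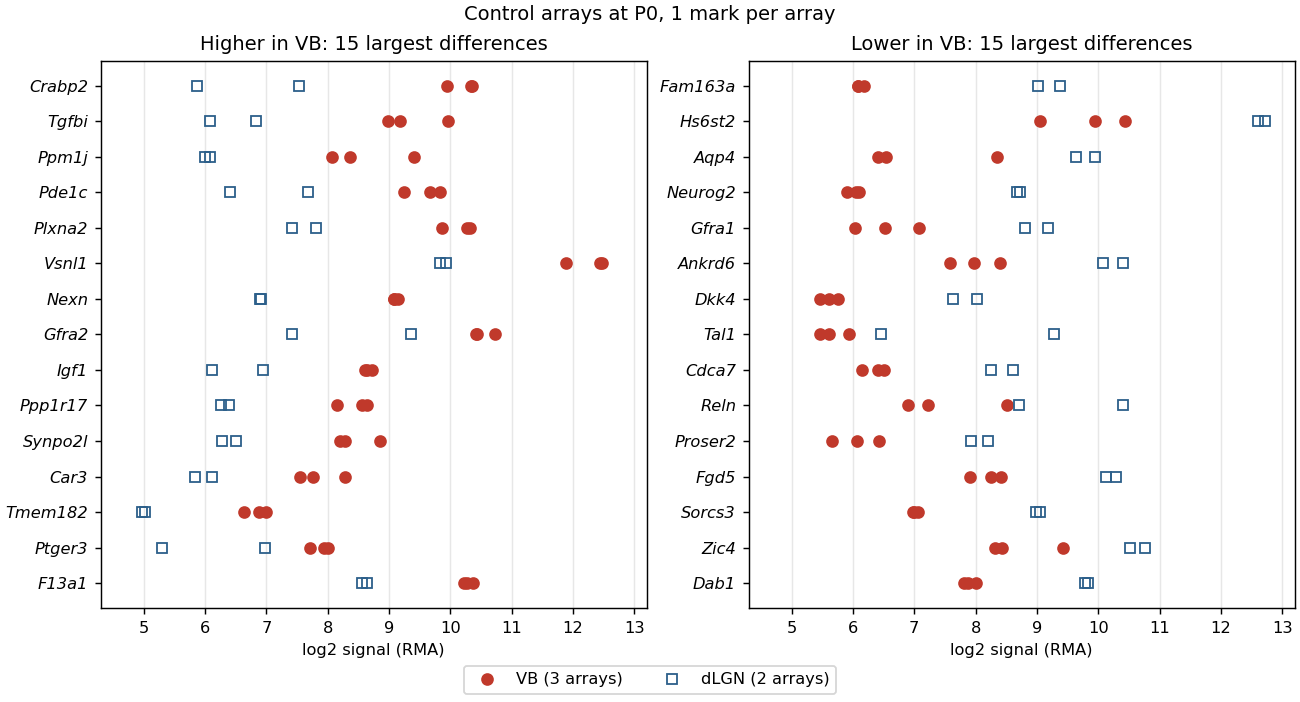
Log2 signal (horizontal axis) of the 15 named genes with the largest rise in VB (left) and the 15 with the largest fall (right), 1 mark per control array at P0 (VB filled circles, dLGN open squares). The 30 genes were chosen among calls whose VB arrays do not overlap the dLGN arrays, so the lack of overlap follows from that choice. Gfra2, Ptger3, Tal1 and Reln show dLGN arrays that lie well apart from each other.

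Of 10 GDNF family ligands and receptors, grouped after their values were seen, 1 was called higher in VB and 1 lower, with a median of 0.07. Gfra2, the preferred co-receptor of neurturin, was higher in VB, with 10.72, 10.41 and 10.43 against 7.42 and 9.36 in dLGN (difference 2.13, SE 0.33, 4.38-fold, adjusted p = 0.000884). Gfra1, the preferred co-receptor of GDNF, was lower in VB, with 6.04, 6.52 and 7.07 against 9.18 and 8.81 in dLGN (difference -2.45, SE 0.43, 5.46-fold, adjusted p = 0.00362). Ret, the kinase through which both signal, read 7.25, 6.96 and 7.17 in VB and 7.78 and 7.78 in dLGN, a difference of -0.65 that did not pass adjustment (adjusted p = 0.0707). The ligands Gdnf and Nrtn differed by 0.13 and 0.06 and the co-receptors Gfra3 and Gfra4 by 0.08 and 0.30, and none of these passed. Of the 4 other probe sets of Gfra2, 3 had the sign of the one used and 1 gave a difference of -0.04. Gfra1 lost the call without dLGN 35_1 (adjusted p = 0.074), and Gfra2 kept it without each array in turn.

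Growth factors of other families were also uneven. Igf1 read 8.65, 8.61 and 8.73 in VB, against 6.12 and 6.94 in dLGN (difference 2.13, SE 0.25, adjusted p = 7.76e-05), and its binding protein Igfbp2 read 9.40, 10.04 and 10.53 in VB, against 8.65 and 8.31 in dLGN (difference 1.51, adjusted p = 0.00954). The related Igfbpl1 was lower in VB, at -0.80 (adjusted p = 0.00786). Bdnf, the neurotrophin that binds TrkB, differed by 0.73 (7.86, 7.77 and 7.48 in VB, 6.89 and 7.05 in dLGN, adjusted p = 0.0192), and Ngfr, the low-affinity neurotrophin receptor, by 0.95 (8.24, 8.12 and 7.83 in VB, 7.17 and 7.06 in dLGN, adjusted p = 0.0304). Bmp6 was lower in VB at -0.90 (adjusted p = 0.0063). A list of 34 measured insulin-like growth factors, bone morphogenetic proteins, neurotrophins and their receptors also held Gfra1 and Gfra2 of the GDNF family, given above. In this list 5 genes were called higher in VB (Igf1, Igfbp2, Gfra2, Bdnf and Ngfr) and 3 lower (Gfra1, Igfbpl1 and Bmp6). Of all genes 0.583% were called higher and 1.03% lower. The median difference was 0.10 over the list, beside 0.03 over all genes. Bdnf missed adjustment when any array other than VB 39_5 was left out (adjusted p between 0.0646 and 0.239), and Igfbp2 without dLGN 39_5 (0.228) or VB 39_5 (0.0678).

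**Figure D4:**
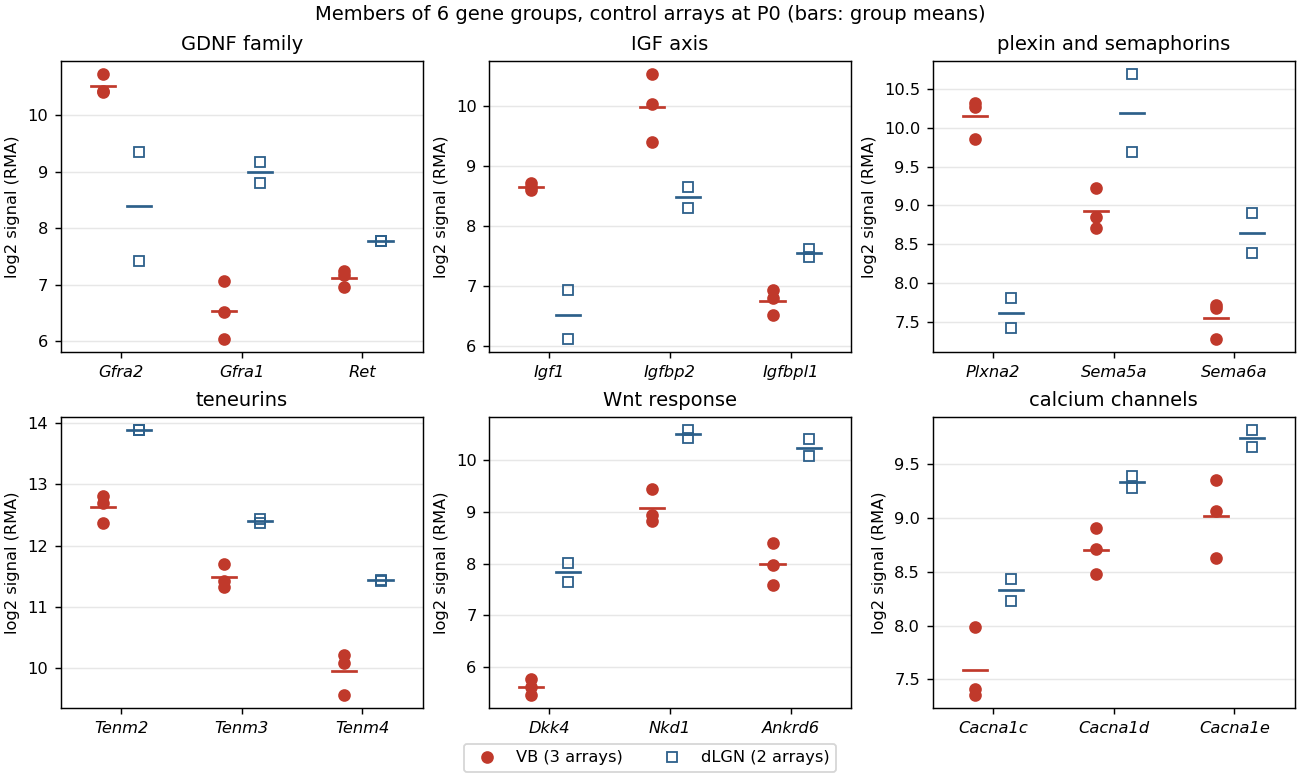
Log2 signal (vertical axes) of 3 members of each of 6 gene groups, 1 mark per control array at P0 (VB filled circles on the left, dLGN open squares on the right) with bars at the means. Gfra2, Igf1, Igfbp2 and Plxna2 lie higher in VB, and the other 14 genes shown lie higher in dLGN.

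Fibroblast growth factors showed both directions. Fgf9, a ligand made by neurons, was higher in VB at 0.96 (10.06, 9.60 and 9.67 in VB, 8.61 and 9.02 in dLGN, adjusted p = 0.0196), and so was Dusp6, a phosphatase induced by ERK signalling that feeds back on it, at 0.98 (8.52, 8.96 and 8.58 in VB, 7.55 and 7.85 in dLGN, adjusted p = 0.0209). Fgf15 was lower in VB, with 5.04, 5.31 and 5.07 against 6.85 and 6.52 in dLGN (difference -1.55, SE 0.18, adjusted p = 4.29e-05). Of the 29 FGF ligands, receptors and feedback inhibitors measured, these 3 were the adjusted calls, beside 1.61% of all genes. Both rises lost the call without either dLGN array, Fgf9 also without VB 35_1 (adjusted p between 0.057 and 0.336) and Dusp6 without VB 35_2 or VB 39_5 (between 0.0506 and 0.286), and Fgf15 kept it without each array in turn.

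Plxna2 gave the difference with the smallest adjusted p of all genes. This receptor of semaphorins read 10.32, 9.86 and 10.27 in VB, against 7.42 and 7.81 in dLGN (difference 2.54, SE 0.21, 5.81-fold, adjusted p = 1.81e-06), and its 3 other probe sets had the same sign. Plxna1, Plxna3 and Plxna4 differed by -0.42, -0.21 and 0.25 and did not pass. The transmembrane semaphorins Sema5a and Sema6a were lower in VB: Sema5a read 8.71, 8.85 and 9.22, against 9.69 and 10.69 in dLGN (difference -1.26, adjusted p = 0.0152), and Sema6a read 7.67, 7.71 and 7.27, against 8.39 and 8.90 in dLGN (difference -1.09, adjusted p = 0.0245). Sema6a protein is a known ligand of plexin-A2. Neither semaphorin passed adjustment in the other arrays. Sema5a differed by -0.10 at P4 and -0.29 in embBE mice at P0, and Sema6a by 0.05 and -0.41. The 2 other probe sets of Sema6a gave differences of 0.06 and 0.08, and both semaphorins lost the call without dLGN 39_5 (adjusted p = 0.58 for Sema5a and 0.507 for Sema6a), Sema5a also without VB 35_1 (0.0515) and Sema6a without VB 39_5 (0.13). Unc5c, a netrin receptor that mediates repulsion, was lower in VB at -0.89 (9.56, 9.23 and 9.06 in VB, 10.06 and 10.28 in dLGN, adjusted p = 0.00188). Among 48 measured semaphorins, Slits, netrins and receptors 1 gene was called higher in VB and 3 lower, beside 0.583% and 1.03% of all genes. No ephrin or Eph receptor passed adjustment among 21 measured, where 1.61% of all genes did. Efna2 alone passed the threshold of the study, at -0.59, as did 3.57% of all genes.

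Synaptic adhesion proteins passed adjustment in 1 direction in the P0 controls, but in both directions in the other arrays. Tenm2, Tenm3 and Tenm4, teneurins that join pre- and postsynaptic membranes and match partners in developing circuits, were all lower in VB. Tenm2 read 12.70, 12.81 and 12.37 in VB, against 13.89 and 13.89 in dLGN (difference -1.26, SE 0.19, adjusted p = 0.000802). Tenm4 read 10.07, 10.20 and 9.55 in VB, against 11.44 and 11.43 in dLGN (difference -1.49, SE 0.21, adjusted p = 0.000418). Tenm3, which in the mouse is known for its part in retinal projections to dLGN, read 11.42, 11.69 and 11.32 in VB, against 12.36 and 12.44 in dLGN (difference -0.92, SE 0.18, adjusted p = 0.00692). The fourth teneurin, Tenm1, differed by -0.22 and was not called (adjusted p = 0.975). Grid1, a delta glutamate receptor bound by cerebellins, was lower as well (8.62, 8.60 and 8.65 in VB, 9.59 and 9.82 in dLGN, difference -1.08, adjusted p = 0.000678). These 4 genes were the adjusted calls among 35 synapse organisers, beside 1.03% of all genes called lower. At the threshold of the study 4 organisers were higher in VB too, beside 1.29% of all genes. Among them were Lrrtm4, a postsynaptic adhesion protein, at 1.54 (adjusted p = 0.094), and Cbln1, a cerebellin, at 1.31 (adjusted p = 0.387). Cbln1 read 9.82 in VB 35_2 against 11.50 and 11.40 on the other VB arrays. Of the 35 organisers, 5 were called higher and 3 lower in VB at P4, where 3.34% of all genes were called. In embBE mice at P0, 5 were called higher and 6 lower, where 8.42% of all genes were called.

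Cadherins were called at P0 at the weaker threshold alone. Of 29 measured, 15 lay above 0 and 14 below, with a list median of 0.03, as over all genes. None passed adjustment, where 1.61% of all genes did. The threshold of the study was passed by 4, all higher in VB, beside 1.29% of all genes. They were Pcdh17 at 1.55 (9.58, 9.91 and 9.89 in VB, 7.76 and 8.73 in dLGN, adjusted p = 0.108), Cdh13 at 1.27 (adjusted p = 0.116), Cdh6 at 1.04 (adjusted p = 0.143) and Pcdh11x at 0.74 (adjusted p = 0.334). At P4, 5 cadherins passed adjustment, all higher in VB, where 1.79% of all genes were called higher at that age.

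Reelin and its adaptor were both lower in VB. Dab1, the intracellular adaptor that reelin receptors phosphorylate, read 8.0, 7.81 and 7.88 in VB, against 9.79 and 9.83 in dLGN (difference -1.91, SE 0.20, 3.76-fold, adjusted p = 8.16e-06), and 4 further probe sets had the same sign. Reln, the secreted ligand, read 7.22, 6.89 and 8.51 in VB, against 8.71 and 10.40 in dLGN (difference -2.02, SE 0.43, adjusted p = 0.0148), although its other probe set gave -0.13. Both arrays labelled 39_5, which carried the higher Gad1, also held the higher Reln of their nucleus, and without dLGN 39_5 the difference in Reln was -1.17 (adjusted p = 0.593). It also lost the call without VB 35_2 (adjusted p = 0.0705). The receptors Vldlr and Lrp8 differed by 0.60 (adjusted p = 0.128) and 0.11 (adjusted p = 0.939).

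Transcription factors of the relay lineage included 2 adjusted calls higher in VB and 5 lower among 27 measured, beside 0.583% and 1.03% of all genes. The list median was -0.14. Rorb, the orphan nuclear receptor that the study follows in VB, read 8.65, 8.27 and 8.20 in VB, against 6.90 and 6.54 in dLGN (difference 1.66, SE 0.33, 3.15-fold, adjusted p = 0.00987), and 2 other probe sets had the same sign. Its relative Rora, measured by 9 probe sets of 1 sign, was lower in VB at the threshold of the study (10.93, 11.76 and 11.09 in VB, 12.12 and 12.09 in dLGN, difference -0.85, adjusted p = 0.257). Lmo4, a LIM-only cofactor, was higher in VB at 0.79 (6.92, 7.24 and 7.50 in VB, 6.48 and 6.39 in dLGN, adjusted p = 0.0252). The Rorb call was lost without either dLGN array, at 1.48 without 39_5 (adjusted p = 0.228) and 1.84 without 35_1 (adjusted p = 0.0506).

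On the dLGN side stood Neurog2, a proneural factor of thalamic progenitors, with 6.05, 6.10 and 5.90 in VB against 8.68 and 8.72 in dLGN (difference -2.68, SE 0.24, 6.41-fold, adjusted p = 3.19e-06). Zic4, a zinc finger factor, read 8.43, 9.42 and 8.31 in VB and 10.77 and 10.52 in dLGN (difference -1.92, adjusted p = 0.00769). The LIM homeobox gene Lhx2 read 5.09, 4.80 and 4.17 in VB and 6.43 and 6.07 in dLGN (difference -1.56, adjusted p = 0.0185), and the related Lhx9 differed by -0.68 (adjusted p = 0.0294). Sox2, a factor kept in relay neurons after mitosis, differed by -0.78 (11.35, 11.80 and 11.08 in VB, 12.19 and 12.19 in dLGN, adjusted p = 0.0369). Lef1, Foxp2 and Gbx2 were not called. Zic4 and Lhx2 lost the call without either dLGN array or VB 39_5 (adjusted p between 0.0507 and 0.112 for Zic4 and between 0.109 and 0.239 for Lhx2), and Neurog2 kept it without each array in turn. Cell cycle genes gave no adjusted call among 31 measured, where 1.61% of all genes were called. Their summed signal was 10800, 10700 and 11800 in VB and 13800 and 11000 in dLGN.

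Among 49 regional patterning factors Zic4 was the single adjusted call, beside 1.61% of all genes called. Tal1, a factor of GABAergic precursors in the brain, was called lower in VB at -2.20 (adjusted p = 0.0359), but its values of 5.61, 5.46 and 5.94 in VB stood against 6.46 and 9.28 in dLGN, and without dLGN 39_5 the difference was -0.79 (adjusted p = 0.945). Its call was lost without each VB array too (adjusted p between 0.0767 and 0.106). Nkx2-2, a marker of the ventral geniculate lineage, showed the same pattern below adjustment, with 6.59, 6.77 and 7.07 in VB against 6.74 and 9.87 in dLGN, as did Gata3, with 5.07, 4.94 and 4.95 against 5.17 and 6.94. These are markers of the inhibitory list whose sum was highest in dLGN 39_5. Of the 24 markers in that list 1 was called lower and none higher. Sox14 and Calb2, markers of neighbouring nuclei, differed by -0.01 and 0.15 and were not called.

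Among Wnt ligands, receptors and inhibitors 3 of 39 measured genes were called, all lower in VB, beside 1.03% of all genes called lower. Of the 39, 21 lay above 0, with a list median of 0.03. Fzd8, a Wnt receptor, read 6.26, 6.77 and 6.09 in VB, against 7.87 and 8.46 in dLGN (difference -1.79, SE 0.27, adjusted p = 0.000862). Nkd1, an inhibitor that Wnt signalling induces against itself, read 9.43, 8.93 and 8.83 in VB, against 10.43 and 10.58 in dLGN (difference -1.44, SE 0.18, adjusted p = 0.000109). Lgr5, a receptor of R-spondins, read 5.72, 5.81 and 5.63 in VB, against 7.33 and 7.24 in dLGN (difference -1.56, adjusted p = 0.0298), although its other probe set gave 0.04. Outside that list, Dkk4, a secreted Wnt antagonist, read 5.61, 5.76 and 5.47 in VB, against 7.64 and 8.02 in dLGN (difference -2.21, SE 0.27, 4.64-fold, adjusted p = 8.84e-05). Ankrd6, an intracellular regulator of the pathway, differed by -2.25 (7.58, 8.40 and 7.97 in VB, 10.40 and 10.08 in dLGN, adjusted p = 0.00147), and Cdca7 by -2.07 (6.15, 6.51 and 6.41 in VB, 8.60 and 8.25 in dLGN, adjusted p = 0.00147). The 2 other probe sets of Ankrd6 gave -0.83 and 0.03. In a group of 18 measured Wnt response and feedback genes, put together after these values were seen, 6 were called lower in VB and none higher. Axin2, a widely used target gene, differed by -0.34 and was not called (8.35, 7.94 and 8.12 in VB, 8.44 and 8.52 in dLGN, adjusted p = 0.242), nor were the pathway's nuclear factors Tcf7l2 and Lef1 or Ctnnb1. Dkk4, Nkd1, Ankrd6 and Cdca7 kept the call without each array in turn, Fzd8 lost it without dLGN 39_5 (adjusted p = 0.0567) and Lgr5 lost it without any 1 array (between 0.0623 and 0.252).

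Of 23 heparan sulfate genes, grouped after their values were seen, 2 were called lower in VB and 1 higher, with a median of -0.01. Hs6st2, an enzyme that adds 6-O-sulfate to heparan sulfate chains, read 9.05, 9.94 and 10.43 in VB, against 12.71 and 12.60 in dLGN (difference -2.85, SE 0.40, adjusted p = 0.000405), and its 3 other probe sets agreed in sign. Gpc4, a glypican core protein secreted by astrocytes among others, read 8.09, 7.58 and 8.30 in VB, against 9.36 and 9.79 in dLGN (difference -1.58, adjusted p = 0.000936). A pair of other proteoglycans were higher in VB: Sdc1 at 1.57 (8.59, 8.08 and 8.15 in VB, 6.59 and 6.82 in dLGN, adjusted p = 0.00137) and Spock1 at 1.68 (9.41, 9.91 and 9.41 in VB, 7.88 and 7.92 in dLGN, adjusted p = 0.000682). The list of 31 brain proteoglycans and matrix partners thus held 2 calls in each direction, with Reln the other gene lower in VB. Of all genes 0.583% were called higher and 1.03% lower. Gpc4 lost the call without dLGN 39_5 (adjusted p = 0.0567).

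Of all genes Fam163a had the largest fall, at 6.08, 6.08 and 6.18 in VB against 9.02 and 9.38 in dLGN (difference -3.09, SE 0.27, 8.49-fold, adjusted p = 2.08e-06). Sorcs3 and Sorcs1, sorting receptors of the VPS10 domain family, were lower in VB together: Sorcs3 read 7.06, 6.99 and 6.98 against 9.06 and 8.98 in dLGN (difference -2.01, adjusted p = 3.9e-06), and Sorcs1 read 6.60, 6.39 and 6.48 against 8.41 and 8.30 in dLGN (difference -1.87, adjusted p = 0.00564). The 3 other members of that family, Sort1, Sorl1 and Sorcs2, were not called. Fgd5, an exchange factor for Cdc42, fell by 2.01 (8.42, 8.26 and 7.91 in VB, 10.12 and 10.29 in dLGN, adjusted p = 3.9e-06), and Proser2 fell by 2.02. Hdc, the histamine-synthesising enzyme, which was named after its value was seen, read 7.60, 8.02 and 7.08 in VB, against 8.96 and 9.69 in dLGN (difference -1.76, adjusted p = 0.0063).

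Of 29 measured sodium, calcium and HCN channel genes 6 were called, beside 1.61% of all genes. All 6 were calcium channel genes that were lower in VB, where 1.03% of all genes were called lower. Of the 29, 11 lay above 0 and the list median was -0.13. The 6 were Cacna1h at -1.01 (adjusted p = 0.00752), Cacng2 at -0.87 (0.0196), Cacna1c at -0.75 (0.0392), Cacna1e at -0.73 (0.0385), Cacng8 at -0.69 (0.0291) and Cacna1d at -0.63 (0.0148). Cacna1h, which forms a low-threshold T-type channel, read 8.03, 8.08 and 7.62 in VB, against 8.92 and 8.91 in dLGN. Cacna1c and Cacna1d form L-type channels, Cacna1e an R-type channel, and Cacng2 and Cacng8 encode proteins that also act as auxiliary subunits of AMPA receptors. Cacna2d3 ran the other way at the threshold of the study, at 1.16 (9.12, 10.01 and 9.38 in VB, 8.90 and 7.79 in dLGN, adjusted p = 0.341). Cacna1h, Cacng2 and Cacna1c kept the direction but not the call when either dLGN array (adjusted p between 0.0755 and 0.49) or VB 39_5 (between 0.051 and 0.198) was left out, and Cacng2 and Cacna1c also without VB 35_2. At P4 the list held 2 genes called higher in VB and 2 lower, with a median of 0.10.

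Among 46 potassium channels 2 were called, both lower in VB, beside 1.03% of all genes called lower. Kcnc2, a Kv3 channel of fast-firing neurons, read 6.68, 6.61 and 6.16 in VB, against 7.83 and 7.66 in dLGN (difference -1.26, SE 0.21, adjusted p = 0.002), and Kcnn1, a small-conductance calcium-activated channel, differed by -0.82 (adjusted p = 0.0291). Of 21 glutamate receptor genes 2 were called, both lower in VB, beside 1.03% of all genes called lower. Grin2d, an NMDA receptor subunit, differed by -1.09 (8.52, 7.85 and 7.70 in VB, 8.85 and 9.36 in dLGN, adjusted p = 0.0252) and Grik3, a kainate receptor subunit, by -0.87 (adjusted p = 0.0429). The other probe set of Grin2d gave 0.15 and that of Grik3 gave -0.01. Both calls were lost without VB 35_2, VB 39_5 or dLGN 39_5, and the call of Grik3 also without dLGN 35_1. Syn2, a synaptic vesicle phosphoprotein, was lower in VB at -1.17 (9.64, 9.12 and 9.94 in VB, 10.85 and 10.62 in dLGN, adjusted p = 0.00344). It was the only adjusted call among 34 neurofilament, axon growth and transmitter release genes, where 1.61% of all genes were called. The Syn2 call was lost without dLGN 35_1 (adjusted p = 0.0774).

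Slc6a4, the serotonin transporter that thalamocortical axons carry transiently around birth, read 9.05, 9.67 and 9.92 in VB, against 8.37 and 7.92 in dLGN. The difference of 1.40 (SE 0.38, 2.64-fold) passed the threshold of the study but not adjustment (adjusted p = 0.0699). Slc18a2, the vesicular monoamine transporter, differed by -0.89 (8.64, 9.49 and 8.75 in VB, 9.94 and 9.75 in dLGN, adjusted p = 0.279). No gene of the 15 in the serotonin list passed adjustment, where 1.61% of all genes did. Without VB 35_1 the difference in Slc6a4 was 1.65 and passed (adjusted p = 0.038). Cck, the precursor of cholecystokinin, was the one adjusted call among 24 neuropeptides, with 12.13, 12.82 and 13.04 in VB against 11.45 and 11.61 in dLGN (difference 1.14, SE 0.24, adjusted p = 0.0148). The call was lost when any array other than VB 35_1 was left out (adjusted p between 0.0569 and 0.177). Penk, the enkephalin precursor, differed by -1.10 and Tac1, the substance P precursor, by -1.12, and for both the highest value was in dLGN 39_5 (adjusted p = 0.157 and 0.0615).

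Glial genes moved in both directions. Aqp4, the water channel of astrocyte endfeet, read 6.41, 6.54 and 8.35 in VB, against 9.95 and 9.63 in dLGN (difference -2.69, SE 0.41, 6.46-fold, adjusted p = 0.000916), and Hopx, which marks radial glia and astrocytes, differed by -1.36 (8.83, 9.02 and 9.17 in VB, 10.71 and 10.03 in dLGN, adjusted p = 0.00716). Hes1, a target of Notch signalling in progenitors, was higher in VB at 1.19 (adjusted p = 0.0126). The other 15 of 18 astrocyte and radial glia markers were not called, and the summed signal of the list overlapped between nuclei (27200, 32700 and 37400 in VB, 33800 and 29900 in dLGN). Mbp, a myelin protein, was higher in VB at 1.23 (8.72, 9.01 and 8.98 in VB, 8.09 and 7.27 in dLGN, adjusted p = 0.0187), with 7 further probe sets of the same sign, and it was the one adjusted call of 17 oligodendrocyte genes. Without dLGN 39_5 the difference in Mbp was 0.81 (adjusted p = 0.573), and the call was lost without VB 35_2 or VB 39_5 as well (0.0617 and 0.0801). Hes1 lost the call when any array other than VB 35_1 was left out (adjusted p between 0.0577 and 0.144) and Hopx without dLGN 35_1 (0.216), while Aqp4 kept it without each array in turn. No microglial, vascular, red blood cell, choroid plexus, habenula or cortical marker passed adjustment, where 1.61% of all genes did.

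Several genes best known from striated muscle were among the calls higher in VB. A group of 11 genes of Z-discs and muscle atrophy was put together around them after the values were seen, so that its count of 8 called higher follows from that choice. Its other members, Actn2, Ldb3 and Myoz2, differed by 0.19, 0.18 and 0.35 and were not called. Nexn, an actin-binding Z-disc protein, read 9.08, 9.14 and 9.08 in VB, against 6.90 and 6.92 in dLGN (difference 2.19, SE 0.34, 4.57-fold, adjusted p = 0.000936). Synpo2l read 8.85, 8.20 and 8.29 in VB, against 6.28 and 6.50 in dLGN (difference 2.06, adjusted p = 0.00015), although its 3 other probe sets gave 0.03 to 0.5. Tmem182, Car3 (a carbonic anhydrase), Fbxo32 and Trim63 (ubiquitin ligases of muscle atrophy), Dhrs7c and Pdlim5 differed by 1.85, 1.89, 1.51, 1.30, 1.38 and 1.27. Car3 lost the call without dLGN 39_5 (adjusted p = 0.0611), and its 3 other probe sets gave 0.01 to 0.26. The genes that define skeletal muscle fibres did not pass adjustment: in a list of 10, also put together afterwards, Ckm read 5.96, 5.67 and 5.70 in VB and 5.53 and 5.73 in dLGN, Acta1 lay between 6.77 and 7.58 in VB and at 7.45 and 7.33 in dLGN, and the median difference was 0.11. Myh3, an embryonic myosin heavy chain of the same list, passed the threshold of the study (6.35, 5.86 and 6.22 in VB, 5.52 and 5.33 in dLGN, difference 0.72, adjusted p = 0.364) and differed by 2.17 at P4. Myl2, a myosin light chain, ran the other way (8.17, 7.99 and 8.16 in VB, 9.40 and 9.43 in dLGN, difference -1.30, adjusted p = 0.00137).

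The differences of the 293 genes were then read in P4 and embBE arrays, which did not enter the P0 control difference but shared its estimate of the spread and its choice of probe sets. The Gapdh gap was smaller in VB in these arrays too. It was 3.03 to 3.47 in VB and 3.63 to 4.52 in dLGN in controls at P4. In embBE mice at P0 it was 3.64 to 4.02 in VB and 4.08 to 4.78 in dLGN. A repeat of the sign therefore cannot tell the nucleus and RNA length apart. In control mice at P4, 277 of the 293 (94.5%) had the same sign, against 49.1% of all genes, and 169 passed an adjusted p under 0.05 there with that sign, which is 57.7% of the P0 calls and 27.8% of the 607 genes called at P4 (3.34% of those tested). None passed with the opposite sign. The median difference of the genes higher in VB was 1.06 at P0 and 0.94 at P4, and that of the genes lower in VB was -0.97 at P0 and -0.66 at P4. In embBE mice at P0 these medians were 0.97 and -0.73. The genes were chosen by their P0 control values, which favours large differences in those arrays, so these medians cannot show a change with age. Plxna2 differed by 3.02 at P4 (10.32 ± 0.13 in VB and 7.30 ± 0.07 in dLGN, SD, n = 3 each), Crabp2 by 3.39, Rorb by 1.59, Igf1 by 1.87, Neurog2 by -1.95 and Fam163a by -2.36, each past adjustment. Crabp2, whose P0 call was lost without dLGN 39_5, and Rorb, whose call was lost without either dLGN array, passed at P4 (adjusted p = 0.00142 and 0.00289). Cck, Aqp4 and Nexn did not pass there, at 0.20, -0.17 and 0.52 (adjusted p = 0.699, 0.857 and 0.492). Aqp4 averaged 10.81 ± 0.38 in VB and 10.98 ± 0.30 in dLGN at P4, against 7.10 ± 1.09 in VB (n = 3) and 9.79 ± 0.23 in dLGN (n = 2) at P0. The change in the Aqp4 difference with age was -2.52 (SE 0.56, adjusted p = 0.239).

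In embBE mice at P0, 290 of the 293 genes (99.0%) had the same sign, against 51.0% of all genes, and 222 passed adjustment with that sign, 75.8% of the control calls and 14.5% of the 1532 genes called in embBE mice (8.42%). None passed with the opposite sign. Rorb differed by 1.77, Plxna2 by 2.63, Cck by 2.06 and Slc6a4 by 2.11 in embBE mice, each past adjustment, and Crabp2 by 1.76 (adjusted p = 0.0507), with 10.32 ± 0.56 in VB (n = 3) and 8.55 ± 1.31 in dLGN (n = 4). The actin gap of the embBE arrays did not overlap between nuclei (2.25 to 2.55 in VB, 3.07 to 4.27 in dLGN), and its part in the larger number of calls was not tested.

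**Figure D5:**
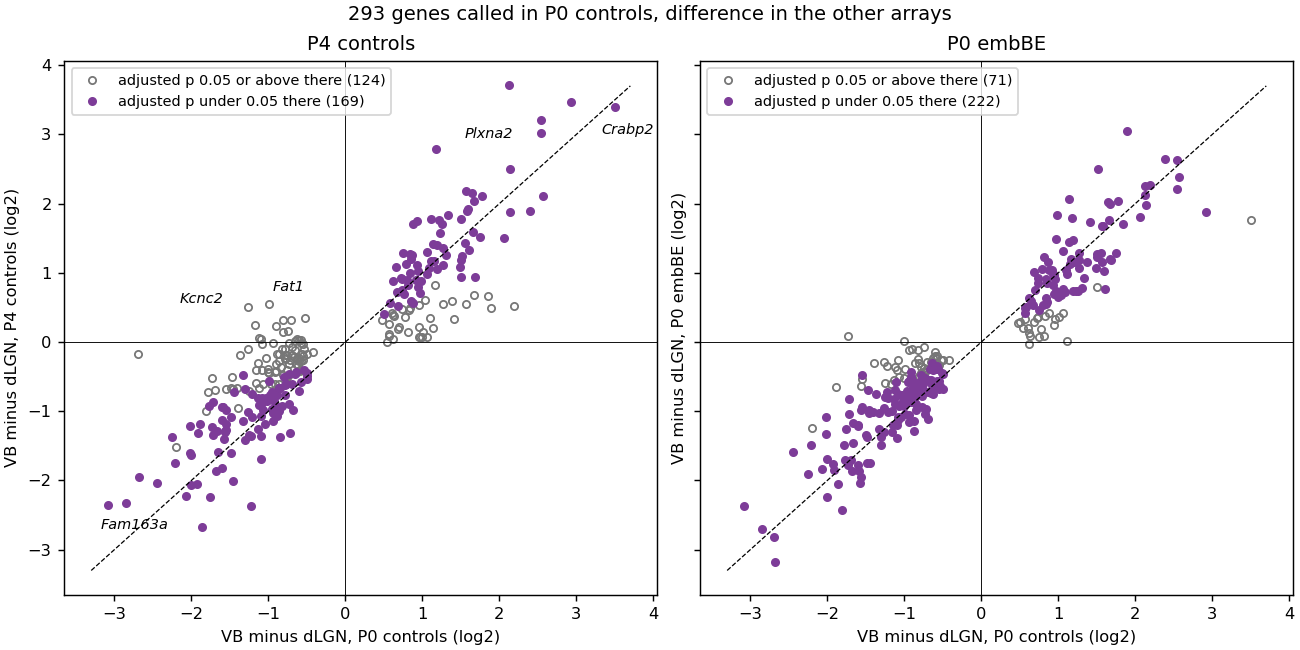
Difference between VB and dLGN (log2) of the 293 genes in P4 controls (left, vertical axis) and in P0 embBE mice (right, vertical axis) against the difference in P0 controls (horizontal axes), with the line of equality dashed. Filled points, 169 at P4 and 222 in embBE mice, passed an adjusted p under 0.05 in the arrays on the vertical axis.

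The difference between the differences was tested by interaction contrasts. Between P0 and P4 it passed adjustment for 4 genes (0.0220% of those tested; 1313 at an unadjusted p under 0.05), of which Fat1 and Kcnc2 were P0 calls. Kcnc2 differed by -1.26 at P0 and 0.51 at P4 (interaction -1.77, SE 0.29, adjusted p = 0.0264): it averaged 7.38 ± 0.14 in VB and 6.88 ± 0.06 in dLGN at P4. Fat1, a giant protocadherin, differed by -1.0 at P0 (8.68, 8.44 and 8.45 in VB, 9.27 and 9.78 in dLGN) and by 0.55 at P4 (interaction -1.55, SE 0.25, adjusted p = 0.0264). Plekhd1 was not called at P0 (0.21) and differed by 2.16 at P4 (interaction -1.95, adjusted p = 0.0371), and Myoz2 differed by 0.35 at P0 and -0.91 at P4 (interaction 1.26, adjusted p = 0.0176). Leaving out 1 P0 array gave between 0 and 8 such genes, with 0 without dLGN 39_5 or VB 35_2. The P4 control arrays had high Xist (10.02 to 11.01) and low Eif2s3y (3.46 to 3.86), the reverse of the P0 arrays, so age and the sex markers cannot be told apart in this contrast. Between embBE and control mice at P0 no gene passed adjustment (limma, smallest adjusted p 0.535), with 1165 genes at an unadjusted p under 0.05. Unlike the P0 controls, the embBE arrays held both states of the sex markers, with Xist from 6.97 to 11.26 in VB and from 7.22 to 11.53 in dLGN. The part of sex in this contrast was not tested.

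Of the 58 named genes with an adjusted call, 23 were called under each of the 18 alternative settings in which they could be tested, the gene-by-gene test of the study methods left aside. The higher ones in VB were F13a1, Igf1, Nexn, Plxna2, Ppm1j, Ppp1r17, Spock1, Synpo2l, Tgfbi and Tmem182. The lower ones were Ankrd6, Cdca7, Dab1, Dkk4, Fam163a, Fgd5, Fgf15, Hs6st2, Neurog2, Proser2, Sorcs3, Tenm2 and Tenm4. F13a1, a subunit of coagulation factor XIII, read 10.38, 10.22 and 10.26 in VB, against 8.65 and 8.56 in dLGN (difference 1.68, adjusted p = 0.000682).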

How the data were processed

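The authors hybridised RNA of 24 samples to Affymetrix mouse expression arrays (3′ probe sets) after repeated rounds of amplification and deposited log2 values normalized with RMA, whose version is not given in the sources used here. No cell files, probe-level intensities or detection calls were used, so the number of arrays limits the precision and weak signals cannot be separated from background. RMA log2 differences tend to understate large folds. The values were used as deposited.

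Of 45101 probe sets (64 array controls), 34958 had 1 gene symbol in the platform annotation (34754 updated by Entrez number), 932 had several and 9211 none. Each gene was read from its brightest probe set (by the mean of all 24 arrays), and no filter was applied, leaving 18194 genes. limma 3.58.1 in R 4.3.3 fitted means of 8 groups of nucleus, age and condition over all arrays (16 residual degrees of freedom) with eBayes. P-values were adjusted by Benjamini-Hochberg over all genes. The script was tested on simulated data. Figures used matplotlib 3.10.9.

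Named genes were the 15 largest rises and 15 largest falls among adjusted calls whose arrays did not overlap (unnamed clones passed over), up to 4 called members of each gene list, 11 fixed genes, and markers of lists that moved with the nuclei; further called members of a list, Hdc, and 11 small groups (such as the reelin, GDNF, teneurin, sortilin and heparan sulfate genes) were chosen after their values were seen. Lists and genes were chosen with earlier results of these data known. Alternatives covered the replicate block, the arrays in the fit, probe set choice, a filter on dim genes, normalization, array weights, the t-test of the methods (a fold of 1.5 and p under 0.05) and leaving out arrays.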

Additional observations from a re-analysis of the deposited data

Results flagged for a closer look

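The interaction contrast of P0 minus P4 in controls passed adjustment for 4 genes: Fat1 (-1.55), Kcnc2 (-1.77), Myoz2 (1.26) and Plekhd1 (-1.95), on the log2 scale. No gene passed without dLGN 39_5 or without VB 35_2. All P0 control arrays had low Xist and all P4 control arrays high Xist. Age and the sex markers therefore cannot be told apart for these genes.

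In the embBE dLGN group at P0, the one group with 4 arrays, 1 array lay far from the other 3 for 7 of the 103 named genes, and chance alone places about 1 group in 20 this far. Crabp2 read 6.61 on array 39_3, against 9.05 to 9.45 on the others, and Pcdh11x read 7.98 on the same array, against 9.09 to 9.32, as did Fgf15 with 5.36, against 5.61 to 5.63. Tal1 read 8.15 on array 39_4, against 6.56 to 6.68, and Gata3 6.26, against 5.16 to 5.31. Fosl2 read 6.65 on array 39_2, against 7.10 to 7.18, and Sv2b 7.74, against 7.35 to 7.40.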

How the results depend on the processing

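The count of 293 genes at an adjusted p under 0.05 was within 1.5 times of its value with the 12130 brighter genes alone (277), cyclic loess (292, 234 shared), arrays centred on their median (286), trended and robust eBayes (287), probe sets averaged per gene (295) and every probe set (435). It was 79 with the 5 arrays alone, 135 with the 12 P0 arrays, 121 with the 11 control arrays, 1240 with array weights and 3 with the methods' t-test, and 84 to 305 with 1 array left out. For the array weights, the dLGN controls had equal weight (1.21) and VB 35_1 a weight of 0.27. A pair of settings were chosen after seeing the data: leaving out VB 35_1 and P4 VB 36_3, the VB arrays with the narrowest signals, gave 352 genes, and the actin gap as a covariate gave 666. The cause of these shifts was not tested.

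The study threshold of 650 genes gave 1246 probe sets when each was counted, 391 genes with the t-test and 576 to 773 with 1 array left out. The interaction of age had 4 genes, 2 among the 12130 brighter genes and 0 to 8 with 1 array left out, and that of embBE had 0, with 0 to 1. Of the P0 calls, 53.8 to 73.8% passed at P4 and 71.1 to 92.9% in embBE mice with 1 P0 array left out, and 92.5 to 98.7% and 96.6 to 100% had the same sign. The listed gene sets held 53 called genes, 46 under cyclic loess and 17 to 49 with 1 array left out. Of 103 named genes, Nkx2-2 (0.068) and Lhx5 (0.16) changed sign, both without dLGN 39_5; with 1 array left out their differences ran between -3.062 and 0.068 and between -1.351 and 0.16.

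The replicate numbers are shared by VB and dLGN arrays. Over the 11 pairs the correlation of deviations from the group means ran between -0.552 and 0.718. Of these, 3 pairs exceeded 0.1 and 3 pairs correlated best with their own number. The 2 dLGN control arrays at P0 deviate as mirror images, which weakens this check. The sex markers had the same state on both arrays of every pair. Controls of each age held 1 state and cannot show pairing, but embBE arrays held both. At P0, Xist in embBE VB and dLGN was 10.86 and 10.90 on 35_3, 11.26 and 11.53 on 39_4, and 6.97 and 7.66 on 39_3. The main fit did not use this pairing. A random replicate block gave 284 genes (consensus correlation -0.02), and a fixed replicate block on the arrays labelled 35_1 and 39_5 gave 227, of which 201 were shared. With that fixed block 10 of the 58 named calls did not pass (adjusted p between 0.0501 and 0.173): Ptger3, Hes1, Mbp, Grin2d, Grik3, Cacng2, Cacna1c, Lgr5, Dusp6 and Bdnf. With the random block the other counts were 650 at the study threshold, 4 for age and 0 for embBE, and 56.3% and 73.9% of the P0 calls passed at P4 and in embBE mice.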
